A study of Mus musculus with 24 samples.

Results

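The nuclear-encoded subunits of the respiratory chain and of ATP synthase were followed in 24 liver RNA-seq libraries. Members were all genes of the expression table that map to a protein-coding mouse symbol beginning with Ndufa, Ndufb, Ndufc, Ndufs, Ndufv, Uqcr, Cox4 to Cox8 or Atp5, together with Sdha, Sdhb, Sdhc and Sdhd, and without the Ndufaf assembly factors. This rule gave 85 of the 18171 genes of the table: 38 of complex I, 4 of complex II, 8 of complex III, 18 of complex IV and 17 of complex V. The rule used names alone and no measured value. The study compared livers of C57BL/6 mice that overexpress a form called L2 delta13, here L2d13, with livers of wild-type (WT) C57BL/6 mice. Each genotype had 12 libraries, and the digit 2 or 4 in the sample names, whose meaning the labels do not give, divided each genotype into 2 groups of 6, here set 2 and set 4. Nothing in the labels says how the overexpression was achieved or that libraries came from separate mice. The p-values therefore set each difference against the spread among these libraries and cannot be carried over to other mice. They may be too small if libraries share a mouse. Total RNA was sequenced on the BGISEQ-500 platform, and levels are in FPKM, fragments counted per length of transcript and per size of the library.

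The respiratory chain passes electrons from NADH (complex I) and succinate (complex II) through ubiquinone, complex III and cytochrome c to oxygen at complex IV. Complexes I, III and IV pump protons across the inner mitochondrial membrane, and ATP synthase, counted as complex V, uses the resulting gradient to make ATP. A few subunits of each complex carry the redox centres or the catalytic sites, and further accessory subunits surround them. Most subunits are encoded in the nucleus. The subunits encoded by mitochondrial DNA are not analysed here. In liver the chain is fed mainly by fatty acid and amino acid oxidation.

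The transcription factors NRF1, GABPA, ESRRA and YY1 are known regulators of nuclear genes for the chain, so their short motifs were looked up in the RefSeq promoters (GRCm38.p6), windows of 250 bases before to 50 bases after the start of each gene. A promoter was found for 69 of the 85 members. The letters GCGCA, any base and GCGC for NRF1 were present in 17 of the 69 promoters (24.6%) and in 12.1% of the promoters of all genes tested. The letters CCGGAAG for GABPA were also present in 17 (24.6%), against 21.3% of all genes tested. The letters AAGATGGCG for YY1 were present in 7 (10.1%), against 3.93%. The letters TCAAGGTCA for ESRRA were present in 2 (2.90%), against 0.341%. Both strands were searched, motifs were allowed to overlap, and a match describes the letters only. The 250 bases before the start are shown, 5' to 3' on the strand of the gene, for 5 members that the results below turn on, with any motif in capitals. Sdhd lies on chromosome 9 (chr9:50603850-50604099, minus strand), Atp5g3 on chromosome 2 (chr2:73911327-73911576, minus strand), Uqcrh on chromosome 4 (chr4:116075071-116075320, minus strand), Cox7a2l on chromosome 17 (chr17:83514334-83514583, minus strand) and Cox7a1 on chromosome 7 (chr7:30183921-30184170, plus strand).
Sdhd: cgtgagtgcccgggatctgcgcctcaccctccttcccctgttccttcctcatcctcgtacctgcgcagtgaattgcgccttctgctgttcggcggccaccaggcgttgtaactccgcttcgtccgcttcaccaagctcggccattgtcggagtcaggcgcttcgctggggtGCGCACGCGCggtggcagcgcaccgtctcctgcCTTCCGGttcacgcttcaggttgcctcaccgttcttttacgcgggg
Atp5g3: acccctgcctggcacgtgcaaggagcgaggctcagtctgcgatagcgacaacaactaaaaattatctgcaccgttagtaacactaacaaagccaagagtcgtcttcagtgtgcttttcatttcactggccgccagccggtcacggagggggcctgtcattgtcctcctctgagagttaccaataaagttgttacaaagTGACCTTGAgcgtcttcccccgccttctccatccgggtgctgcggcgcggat
Uqcrh: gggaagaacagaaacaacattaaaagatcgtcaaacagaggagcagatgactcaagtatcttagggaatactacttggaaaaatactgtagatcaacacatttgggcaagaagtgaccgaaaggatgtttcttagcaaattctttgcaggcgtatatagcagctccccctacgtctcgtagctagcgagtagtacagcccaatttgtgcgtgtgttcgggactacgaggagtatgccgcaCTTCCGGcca
Cox7a2l: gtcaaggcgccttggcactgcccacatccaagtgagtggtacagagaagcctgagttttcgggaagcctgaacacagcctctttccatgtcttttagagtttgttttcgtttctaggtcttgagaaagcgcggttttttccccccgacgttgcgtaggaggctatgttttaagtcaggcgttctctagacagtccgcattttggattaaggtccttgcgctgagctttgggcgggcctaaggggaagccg
Cox7a1: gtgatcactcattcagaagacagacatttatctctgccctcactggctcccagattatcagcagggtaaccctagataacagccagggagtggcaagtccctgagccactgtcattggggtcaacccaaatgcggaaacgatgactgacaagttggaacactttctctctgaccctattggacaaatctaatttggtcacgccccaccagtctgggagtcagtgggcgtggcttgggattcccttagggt

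In Sdhd the NRF1 letters began 79 bases and the GABPA letters 46 bases before the start, and the ESRRA letters began at base 36 after it, outside the bases shown. In Atp5g3 the ESRRA letters began 52 bases before the start and the NRF1 letters at base 12 after it. In Uqcrh the GABPA letters began 10 bases before the start. None of the 4 motifs was found in the windows of Cox7a2l and Cox7a1. The same held for Ndufv1, Atp5b and Atp5pb, which are also described below and whose promoters are not shown. Over both sets, Atp5g3 and Uqcrh did not pass the test described below.

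The libraries themselves differed in ways that bear on these genes. The labels do not spell out L2, but the name L2 delta13 is in use for a form of Loxl2, a lysyl oxidase. Loxl2 had 0.83 to 2.26 FPKM in L2d13 livers and 0.36 to 1.26 FPKM in WT livers. Gm21451, a predicted gene on the same chromosome, had 40.6 to 266 FPKM in L2d13 livers and 0.03 to 1.27 FPKM in WT livers. Whether fragments of the overexpressed form were counted under Gm21451 was not tested, so the Loxl2 values need not measure the overexpression. What 1 fragment was worth in FPKM, read from the spacing of low values and set relative to the median library, was 1.023 to 1.102 in 6 libraries. Among the remaining 18 it was 0.970 to 1.0199. The 6 were replicate 3 of L2d13 set 2, replicate 6 of WT set 2 and replicates 9 to 12 of WT set 4, so only 2 WT libraries of set 4 were outside this class and no L2d13 library of set 4 was in it. The division is therefore not sharp. The summed FPKM of 8 hepatocyte markers was 28897 to 55354 in L2d13 livers and 50441 to 58276 in WT livers. In L2d13 livers, 3 of 8 Kupffer cell, 5 of 7 sinusoidal endothelium and 1 of 8 stellate cell markers tested were higher. None of these was lower. Of 8 hepatocyte markers 1 was higher and 1 lower, and 1 of 4 erythroid markers was lower. None of 3 cholangiocyte and 2 lymphocyte markers was called, and the 1 adipocyte marker tested was higher. Over all genes tested, 25.9% were higher and 4.86% lower. The part of such cell types in the results was not tested. In whole tissue, fewer cells of a type and less RNA per cell cannot be told apart.

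The subunit genes belonged to the most abundant mRNAs of the liver. Of the 81 members that had at least 1 FPKM in at least 6 libraries, 72 had a mean of 62.5 FPKM or more, a level that 1053 of the 10532 genes tested reached, and the median gene tested had 6.99 FPKM. Summed over all 85 members, they made up 2.001 to 3.47% (median 2.75%) of the FPKM of L2d13 libraries and 2.10 to 2.95% (median 2.51%) of that of WT libraries. In set 2 the share was 2.74 to 3.47% (median 2.89%) in L2d13 libraries and 2.10 to 2.95% (median 2.42%) in WT libraries, and in set 4 it was 2.001 to 3.03% (median 2.36%) in L2d13 libraries and 2.15 to 2.73% (median 2.54%) in WT libraries. For this sum the genotypes overlapped in both sets. Taken by complex, only complex V did not overlap in set 2. There it made up 0.871 to 0.976% of the FPKM of L2d13 libraries and 0.667 to 0.779% of that of WT libraries. In set 4 the genotypes overlapped for complex V as well, and for the other complexes they overlapped in both sets.

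Among members with a mean of at least 10 FPKM, the ratio of highest to lowest level was smallest in complex II and largest in complex I. Such a ratio tends to grow with the number of members, 4 in complex II and 37 in complex I. In complex II, the succinate dehydrogenase that also works in the tricarboxylic acid cycle, the mean over 24 libraries lay between 109 FPKM for Sdhd, a membrane anchor, and 166 FPKM for Sdhb, the iron-sulfur subunit, a ratio of 1.52. In complex V the means lay between 161 FPKM for Atp5g2 and 490 FPKM for Atp5g3, which both encode the same c-ring protein, a ratio of 3.04. In complex III they lay between 105 FPKM for Uqcrc2, a core protein, and 377 FPKM for Uqcr11, a small accessory subunit, a ratio of 3.61. In complex I they lay between 16.1 FPKM for Ndufa11 and 311 FPKM for Ndufb9, both accessory subunits, a ratio of 19.3 among 37 members. Complex IV held the highest member of all, Cox7c at 750 FPKM. Its lowest of 12 such members was Cox7a2l at 95.3 FPKM, a ratio of 7.87.

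Complex IV is also where the chain has tissue-specific isoforms, and the liver libraries held mainly one isoform of each pair. Cox4i1 averaged 530 FPKM over the 24 libraries and its hypoxia-linked partner Cox4i2 averaged 0.09 FPKM. The liver-type Cox6a1 averaged 577 FPKM and the heart and muscle type Cox6a2 averaged 0.05 FPKM. Cox8a averaged 495.05 FPKM and the muscle and brown fat type Cox8b averaged 0.07 FPKM. Both genotypes had this order in all 12 of their libraries, as the isoform plot shows. The lower partner was measurable in the other pairs: Cox6b2, known as a testis form, averaged 1.13 FPKM beside 437 FPKM for Cox6b1. Ndufa4l2 averaged 1.72 FPKM beside 575 FPKM for Ndufa4, which was first assigned to complex I and is counted here with complex IV. Cox7a1, the heart and muscle type, averaged 2.19 FPKM beside 149 FPKM for the liver type Cox7a2. Cox4i2, Cox6a2, Cox8b and Ndufb4b, a near copy of Ndufb4, were the 4 members below the filter and were not tested.

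**Figure D1:**
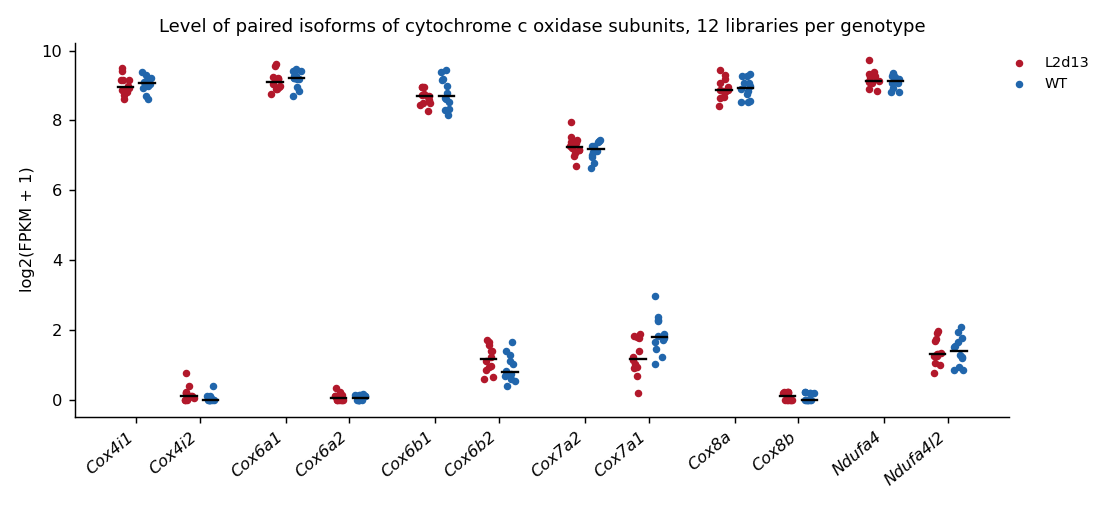
Level of 6 isoform pairs of complex IV as log2(FPKM + 1), with each point 1 library, L2d13 left and WT right of each pair of columns, and the bar the median of 12 libraries. The liver form lies far above its partner in both genotypes, and Cox7a1 is the partner called lower in L2d13 livers than in WT livers.

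The first comparison asked how the genotype changed the subunit genes over both sets. In L2d13 livers 8 of the 81 members tested were higher and 1 was lower than in WT livers, and the other 72 did not pass the test. Over all 10532 genes tested, 30.8% passed, 25.9% higher and 4.86% lower, so the members' share was below that background. The median log2 difference, L2d13 minus WT, was -0.0041 for the members and 0.12 for all genes tested, and 39 members lay above 0 and 42 below. The test was limma on log2(FPKM + 1) with terms for set and genotype, and a gene was called at an adjusted p below 0.05 over all genes tested. The result depended on the scaling: with each library divided by a median-of-ratios factor, which moved the median of all genes tested from 0.12 to 2.4e-05, 1 member was higher and 3 lower, where all genes had 11.5% higher and 11.1% lower.

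By complex, the calls were 3 higher of 37 members in complex I, 1 higher of 4 in complex II, none of 8 in complex III, 1 higher and 1 lower of 15 in complex IV, and 3 higher of 17 in complex V. The median log2 difference was -0.030 in complex I, 0.13 in complex II, 0.095 in complex III, -0.031 in complex IV and 0.031 in complex V. In complex III, 1 of 8 members had an unadjusted p below 0.05. For a further split, 20 subunits were listed as the core. The list also holds subunits that carry no redox centre or catalytic site themselves, such as Cox4i1, Cox5a and Atp5c1. Of the 9 called members, 6 belonged to this core. Thus 6 of the 20 core subunits (30%) were higher, with a median of 0.11, close to the 25.9% and the median of 0.12 of all genes tested. The counts lay below that background outside the core, where 2 of the 61 other members were higher and 1 lower, with a median of -0.030. In complex I, 3 of 7 core subunits were called and none of the 30 accessory subunits, of which 1 had an unadjusted p below 0.05. The contrast depended on the fit. With a term for the class of high FPKM per fragment, 3 of 20 core subunits and 4 of 61 other members were higher. Their medians were then 0.125 and 0.116, and 26.5% of all genes tested were higher. In complex I that fit called 1 of 7 core and 1 of 30 accessory subunits. These counts are descriptions of lists, and the difference between core and accessory subunits was not tested.

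**Figure D2:**
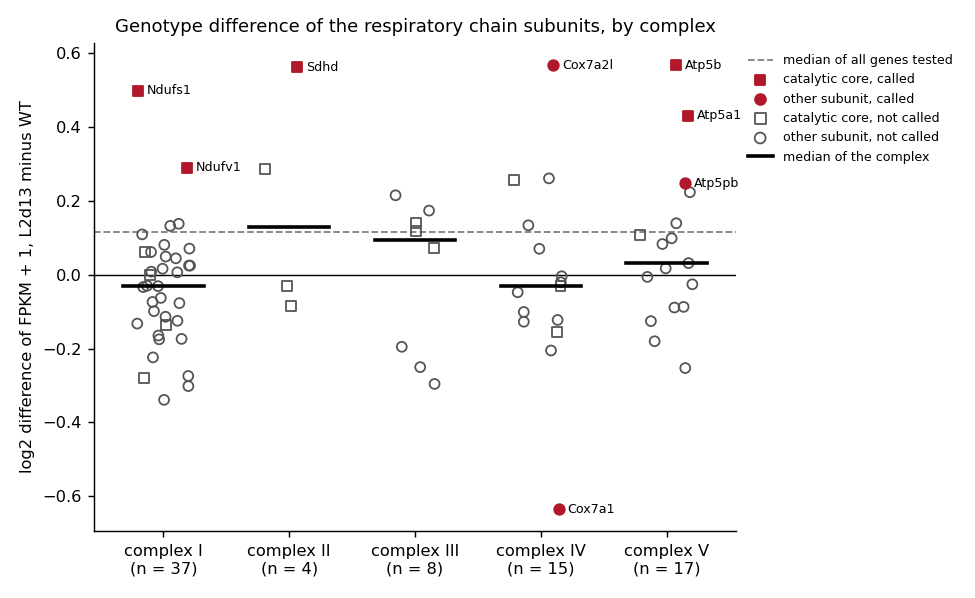
Log2 difference of FPKM + 1, L2d13 minus WT over both sets, for 80 of the 81 members tested, by complex. Squares are core subunits, circles other subunits, filled red points passed the test, thick bars are the median, and n the number, of all members tested in each complex and the dashed line is the median of all genes tested (0.12). The named points above 0 are members called higher, and Cox7a1 is the only member called lower.

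Cox7a2l had the smallest p of all members. It encodes a relative of the Cox7a isoforms that is known for joining complexes III and IV into a supercomplex. In set 2 it had 113, 122 and 164 FPKM (lowest, median, highest) in L2d13 livers, against 41.1, 89.3 and 99.5 FPKM in WT livers. In set 4 it had 95.1, 95.9 and 105 FPKM in L2d13 livers, against 51.5, 74.1 and 88.3 FPKM in WT livers. The genotypes did not overlap in either set, and all 12 L2d13 libraries exceeded the WT mean of their own set. Its log2 difference was 0.57 ± 0.12 (SE), a 1.48-fold change, with an adjusted p of 0.00092 by limma. Among the members tested, Cox7a2l was the only one whose genotypes did not overlap in set 4, and Atp5o was the only other one in set 2, where 6.56% of all genes tested did not overlap in set 4 and 6.00% in set 2. Cox7a2l was called higher under each of the scalings tried and without the 6 libraries of high FPKM per fragment, where its log2 difference was 0.33 ± 0.06 (adjusted p = 0.0013 by limma).

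The calls in complex I were core subunits of the matrix arm. Ndufs1, which carries iron-sulfur clusters of the NADH-oxidising module, had 25.3, 41.0 and 46.3 FPKM (lowest, median, highest) in L2d13 livers of set 2, against 21.5, 27.8 and 39.9 FPKM in WT livers. In set 4 it had 29.7, 37.5 and 40.8 FPKM in L2d13 livers, against 16.02, 24.7 and 33.1 FPKM in WT livers. The genotypes overlapped in both sets, 11 of 12 L2d13 libraries exceeded the WT mean of their own set, and the exception was replicate 3 of set 2. Ndufs1 had a log2 difference of 0.50 ± 0.12 (adjusted p = 0.0038 by limma). It was 0.37 ± 0.11 without the 6 libraries of high FPKM per fragment (adjusted p = 0.024) and 0.36 ± 0.13 with median-of-ratios scaling (adjusted p = 0.055).

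Ndufv1, which binds NADH and the flavin, had 103, 110.4 and 115 FPKM (lowest, median, highest) in L2d13 livers of set 2, against 53.8, 98.2 and 105 FPKM in WT livers. In set 4 it had 95.3, 100.2 and 105 FPKM in L2d13 livers, against 57.3, 90.3 and 101 FPKM in WT livers. All 12 L2d13 libraries exceeded the WT mean of their own set, although the ranges overlapped. The log2 difference of Ndufv1 was 0.29 ± 0.10 (adjusted p = 0.033 by limma). It did not pass without the 6 libraries, at 0.10 ± 0.05 (adjusted p = 0.19), or with median-of-ratios scaling, at 0.15 ± 0.11 (adjusted p = 0.34). Among core subunits that did not pass, the iron-sulfur protein Ndufs8 had a log2 difference of -0.28 ± 0.11 (adjusted p = 0.062 by limma). Ndufs3 had -0.14 ± 0.10 (adjusted p = 0.32), Ndufs7 had -0.00082 and Ndufv2 had 0.062. With median-of-ratios scaling Ndufs8 and the accessory subunit Ndufb4 were called lower; reads of Ndufb4 and its near copies Ndufb4b and Ndufb4c could be divided between them by the counting, so its level is uncertain.

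In complex II the only call was Sdhd, a membrane anchor that helps to bind ubiquinone. In set 2 it had 87.3, 150.5 and 167 FPKM (lowest, median, highest) in L2d13 livers, against 37.8, 109 and 115 FPKM in WT livers. In set 4 it had 103, 108 and 138 FPKM in L2d13 livers, against 55.3, 83.2 and 113 FPKM in WT livers. The lowest value of L2d13 set 2 came from replicate 3, and 11 of 12 L2d13 libraries exceeded the WT mean of their own set. Sdhd had a log2 difference of 0.56 ± 0.16 (adjusted p = 0.0082 by limma). It was 0.36 ± 0.09 without the 6 libraries (adjusted p = 0.0077) and 0.42 ± 0.17 with median-of-ratios scaling (adjusted p = 0.074). The other subunits did not pass: the flavoprotein Sdha had a log2 difference of 0.29 ± 0.19 (adjusted p = 0.27), the iron-sulfur subunit Sdhb -0.030 ± 0.09 (adjusted p = 0.83) and the second anchor Sdhc -0.084 ± 0.08 (adjusted p = 0.43).

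In complex V the calls were both subunits that form the catalytic head and a subunit of the stalk that holds it. Atp5b, the catalytic beta subunit, had 474.9, 654 and 712 FPKM (lowest, median, highest) in L2d13 livers of set 2, against 173, 478 and 595 FPKM in WT livers. In set 4 it had 455, 510 and 559 FPKM in L2d13 livers, against 227, 378 and 520 FPKM in WT livers. All 12 L2d13 libraries exceeded the WT mean of their own set, and the lowest WT values came from libraries of high FPKM per fragment. Atp5b had a log2 difference of 0.57 ± 0.16 (adjusted p = 0.01 by limma), and 0.28 ± 0.09 without the 6 libraries (adjusted p = 0.03).

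Atp5a1, the alpha subunit, had 315 FPKM in L2d13 livers and 243 FPKM in WT livers on average, a log2 difference of 0.43 ± 0.15 (adjusted p = 0.034 by limma). Atp5pb, the b subunit of the peripheral stalk, averaged 177 FPKM in L2d13 livers and 149 FPKM in WT livers, a log2 difference of 0.25 ± 0.09 (adjusted p = 0.044). Both calls lay near the threshold: with 1 library left out at a time, Atp5a1 was called in 17 of 24 fits and Atp5pb in 10. With library class as a term neither passed (adjusted p = 0.20 for Atp5a1 and 0.16 for Atp5pb by limma), while both passed without the 6 libraries, Atp5a1 at 0.21 ± 0.07 (adjusted p = 0.041) and Atp5pb at 0.22 ± 0.07 (adjusted p = 0.027). With median-of-ratios scaling Atp5b had 0.42 ± 0.17 (adjusted p = 0.076), Atp5a1 0.29 ± 0.17 (adjusted p = 0.22) and Atp5pb 0.11 ± 0.11 (adjusted p = 0.50), and none of the 3 passed. The gamma subunit Atp5c1, which turns inside the head, had 0.11 ± 0.08 over all libraries (adjusted p = 0.30). Without the 6 libraries, Atp5c1 and Atp5o, the subunit that couples the stalk to the head, were called higher as well.

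Cox7a1 was the only member called lower, and it was among the lowest members by level. In set 2 it had 0.61, 2.005 and 2.71 FPKM (lowest, median, highest) in L2d13 livers, against 1.0, 2.33 and 6.82 FPKM in WT livers. In set 4 it had 0.15, 0.98 and 2.49 FPKM in L2d13 livers, against 1.34, 2.62 and 4.19 FPKM in WT livers. The genotypes overlapped in both sets, and the highest WT value came from replicate 6 of set 2. Cox7a1 had a log2 difference of -0.64 ± 0.20 (adjusted p = 0.018 by limma), or -0.73 ± 0.20 with median-of-ratios scaling (adjusted p = 0.01). Without the 6 libraries it was -0.32 ± 0.22 and did not pass (adjusted p = 0.33). The 5 skeletal and heart muscle markers in the table summed to at most 0.14 FPKM in L2d13 livers and 0.11 FPKM in WT livers. The 3 brown adipocyte markers, of which Cox8b is itself a member, summed to at most 0.45 FPKM in L2d13 livers and 0.39 FPKM in WT livers. Adipocyte markers summed to at most 61.0 FPKM in L2d13 livers and 19.4 FPKM in WT livers. The part of other tissue in the Cox7a1 values was not tested. None of the other isoforms tested in complex IV was called, with log2 differences of 0.13 ± 0.11 for Cox7a2, 0.26 ± 0.13 for Cox6b2 and -0.020 ± 0.15 for Ndufa4l2.

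**Figure D3:**
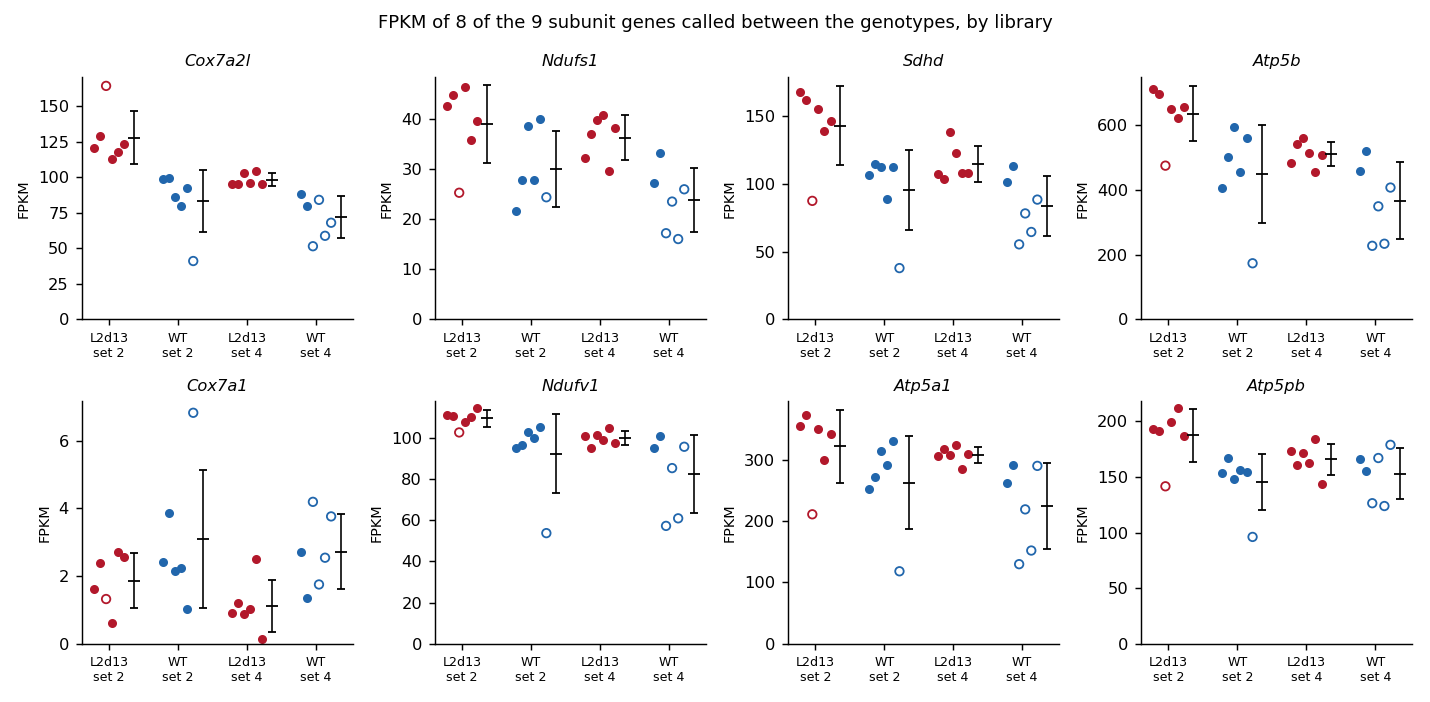
FPKM of 8 of the 9 members called between the genotypes, in each of the 24 libraries, with L2d13 (red) left of WT (blue) within set 2 and set 4. Bars give mean ± SD of 6 libraries, and open circles are the 6 libraries of high FPKM per fragment. For Cox7a2l the genotypes do not overlap within a set, and for Atp5b, Atp5a1 and Ndufv1 the lowest points are open circles in WT.

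Complex III had no call over both sets. Its core proteins Uqcrc1 and Uqcrc2 had log2 differences of 0.072 ± 0.08 (adjusted p = 0.52 by limma) and 0.12 ± 0.08 (adjusted p = 0.26), and Uqcrfs1, the Rieske iron-sulfur protein, had 0.14 ± 0.08 (adjusted p = 0.20). The accessory subunits Uqcrq and Uqcr11 had -0.30 ± 0.18 (adjusted p = 0.23) and -0.25 ± 0.19 (adjusted p = 0.34). The nuclear subunits at the centre of complex IV likewise did not pass, with 0.26 ± 0.13 for Cox5a (adjusted p = 0.14), -0.15 ± 0.17 for Cox5b (adjusted p = 0.53) and -0.031 ± 0.10 for Cox4i1 (adjusted p = 0.85).

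Subunit mRNAs are mostly short, and the calls fell on the longer ones. Of the 80 members tested with a known mRNA length, 52 had up to 1000 bases and 28 had more. All 8 members called higher were among the 28 long ones, and the short ones had 0 higher and 1 lower, with 5 at an unadjusted p below 0.05. Over all genes tested, 27.5% of long and 9.09% of short mRNAs were called higher, and 4.46% of long and 7.49% of short ones lower. The median log2 difference was -0.030 for short and 0.089 for long members, and -0.012 for short and 0.13 for long mRNAs of all genes tested. Across the 80 members, Spearman's rho between length and log2 difference was 0.35, and across all genes tested 0.13; genes are not independent replicates, so no p is given.

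**Figure D4:**
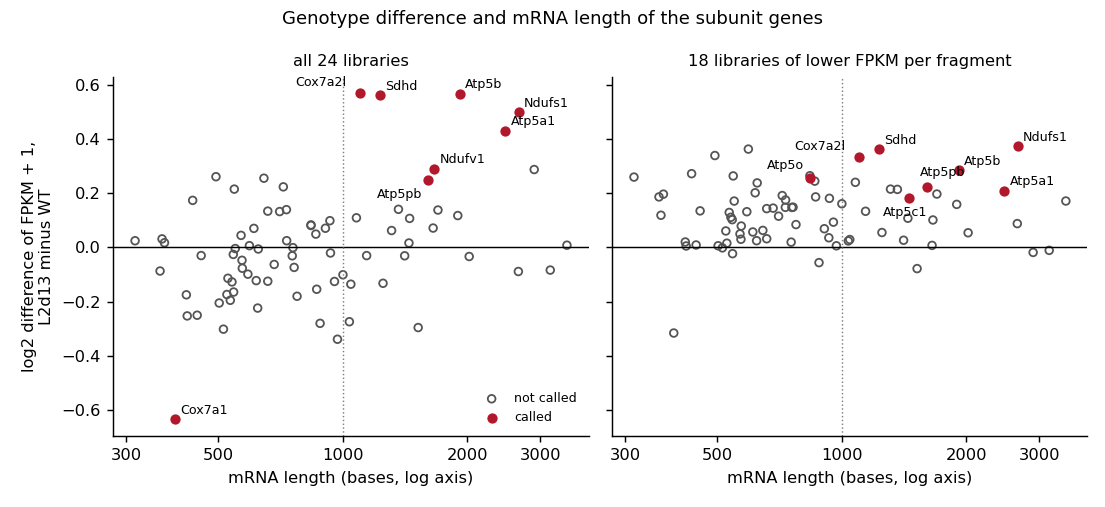
Log2 difference of FPKM + 1, L2d13 minus WT, against mRNA length for members with a known length, over all 24 libraries (left) and over the 18 libraries of lower FPKM per fragment (right). Red points passed the test, and the dotted line marks 1000 bases. On the left the called members above 0 are all longer than 1000 bases, and on the right most points lie above 0 at every length.

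The short members moved with the class of the library. Relative to the mean of 24 libraries, the median of the short members minus that of the long ones was 0.0060 to 0.71 (median 0.29, log2) in the 6 libraries of high FPKM per fragment and -0.33 to 0.13 (median -0.12) in the other 18. Over all genes tested the same quantity was 0.18 to 0.35 in the 6 libraries and -0.30 to 0.21 in the other 18. The part of this class in the genotype differences was not tested beyond leaving the 6 libraries out or adding the class as a term. With the term, 7 of 81 members were called, all higher, beside 30.8% of all genes called and 26.5% called higher. The median was then 0.12 for members and 0.14 for all genes. Of the 7 members, 3 were among the first 9: Cox7a2l, Ndufs1 and Sdhd. Without the 6 libraries, 8 members were higher and 0 lower, beside 19.5% of all genes called, 74 of 81 lay above 0 and the median was 0.13, against 0.062 for all genes. At an unadjusted p below 0.05 there were 20. Of the 9 members first called, 6 were called again: Cox7a2l, Ndufs1, Sdhd, Atp5b, Atp5a1 and Atp5pb. Across members, Spearman's rho was then 0.092, and the medians of short and long members were 0.12 and 0.15. In complex V all 17 members lay above 0 and 5 were called.

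**Figure D5:**
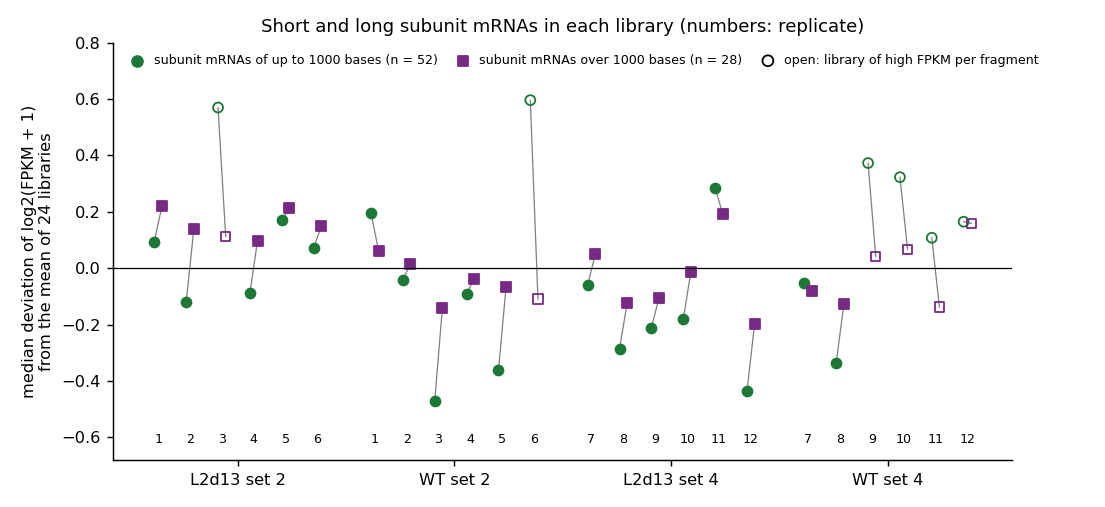
Median deviation of log2(FPKM + 1) from the mean of 24 libraries for short (green circles) and long (purple squares) subunit mRNAs in each library, by group, with L2d13 left of WT in each set and the replicate number below. In the open points, the 6 libraries of high FPKM per fragment, short mRNAs lie at or above long ones, by up to 0.71.

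Within set 2, 3 of 81 members were higher in L2d13 livers and none lower. Of all genes tested 15.1% were called, 13.0% higher, and 17 members had an unadjusted p below 0.05. The median of the members was 0.16, the same to 2 digits as that of all genes tested, and 71 members lay above 0. Beside Cox7a2l (0.66, adjusted p = 0.011 by limma) these were Uqcrh, the hinge protein of complex III beside cytochrome c1, and Atp5g3, 1 of 3 genes for the proton-carrying c-ring. Uqcrh had 275, 318 and 395 FPKM (lowest, median, highest) in L2d13 livers, against 187, 227 and 286 FPKM in WT livers. Atp5g3 had 503, 565 and 664 FPKM in L2d13 livers, against 308, 437 and 514 FPKM in WT livers. The ranges overlapped for both genes, at the lowest L2d13 and the highest WT libraries. The log2 difference was 0.47 for Uqcrh (adjusted p = 0.012) and 0.41 for Atp5g3 (adjusted p = 0.038). Without the 6 libraries of high FPKM per fragment, of which replicate 3 of L2d13 and replicate 6 of WT belong to set 2, 12 members were higher and 0 lower in set 2, beside 17.7% of all genes called higher. Among the 12 were Atp5b, Atp5c1, Atp5pb, Cox6b2, Cox7a2l, Ndufb5, Ndufs1, Ndufv2, Sdhd, Uqcrfs1 and Uqcrh. Atp5g3 was not called there. With median-of-ratios scaling of all libraries, no member was called higher in set 2, beside 3.54% of all genes.

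Within set 4, 1 of 81 members was higher in L2d13 livers and none lower. Of all genes tested 13.3% were called, 10.3% higher, and 13 members were at an unadjusted p below 0.05. The call was Ndufs1, with a log2 difference of 0.62 (adjusted p = 0.022 by limma). The median of the members was -0.19 and that of all genes 0.078, and 64 members lay below 0. All 30 accessory subunits of complex I lay below 0, with a median of -0.25. Here 4 of the 6 WT libraries were of high FPKM per fragment. When all 6 libraries of this class were left out, with 2 WT libraries of set 4 remaining whose spread was taken from the other groups, no member was called, beside 4.93% of all genes, 1 had an unadjusted p below 0.05, and the median was 0.055.

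The difference between the genotype effects, set 4 minus set 2, was called for no member, and it was called for 0.152% of all genes. The count at an unadjusted p below 0.05 was 8 of 81. The median difference of effects was -0.36 for members and -0.078 for all genes, and 77 of 81 members lay below 0. Uqcrh had -0.52 (adjusted p = 0.38 by limma) and Atp5g3 -0.38 (adjusted p = 0.71). Cox7a2l had -0.19 (adjusted p = 0.89), Sdhd -0.15 (adjusted p = 0.93) and Atp5b -0.047 (adjusted p = 0.98). Without the 6 libraries the median was -0.15 for members and -0.18 for all genes, and no member was called, beside 0.636% of all genes.

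Set 4 was also compared with set 2 within each genotype. In L2d13 livers no member was called, beside 6.06% of all genes, 15 had an unadjusted p below 0.05, and the median was -0.24 for members and -0.15 for all genes, with 78 of 81 members below 0. Without replicate 3 of L2d13 set 2, the 1 library of high FPKM per fragment in this genotype, and the 5 WT ones, 6 members were lower in set 4, beside 8.55% of all genes called lower. Among these were Atp5b (-0.39), Atp5c1 (-0.28), Atp5pb (-0.25), Cox7a2l (-0.29) and Sdhd (-0.43). In WT livers no member was called, beside 0.190% of all genes, and none had an unadjusted p below 0.05. The median in WT livers was 0.085 for members and -0.079 for all genes, and without the 6 libraries it was -0.030 for members and 0.078 for all genes.

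Lists of genes that build or feed the chain are described by their counts. These are to be read against the 25.9% of all genes tested that were higher and the 4.86% that were lower in L2d13 livers, with a median of 0.12. Counts with median-of-ratios scaling, here and in the next paragraph, have another background: 11.5% of all genes tested were then higher and 11.1% lower. Of 13 enzymes of the tricarboxylic acid cycle, 11 were higher in L2d13 livers and none lower, with a median of 0.50; Dlst averaged 104 FPKM in L2d13 livers and 64.4 FPKM in WT livers, with a log2 difference of 0.69 ± 0.08 (adjusted p = 3.1e-06 by limma). With median-of-ratios scaling 6 of the 13 were higher and none lower. Of 45 assembly factors, 16 were higher and 1 lower, with a median of 0.15. Among them Ndufaf4, a complex I assembly factor, had 0.46 ± 0.07 (adjusted p = 4.8e-05), and Sdhaf1, which helps to insert the iron-sulfur clusters of Sdhb, had 0.49 ± 0.10 (adjusted p = 0.0008). With median-of-ratios scaling the assembly factors had 7 higher and 3 lower. Of 16 electron carriers and related enzymes, 7 were higher and 1 lower, with a median of 0.21: cytochrome c (Cycs) had 0.36 ± 0.09 (adjusted p = 0.0046), Coq9, which is needed for ubiquinone synthesis, had 0.45 ± 0.10 (adjusted p = 0.0022), and Etfdh, which passes electrons from fatty acid oxidation to ubiquinone, had 0.78 ± 0.21 (adjusted p = 0.0073). With median-of-ratios scaling 2 of these 16 were higher and 2 lower.

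Of 16 regulators of mitochondrial genes, 5 were higher and none lower, with a median of 0.15. These were Tfb1m, which methylates mitochondrial ribosomal RNA, and Tfam, which packages mitochondrial DNA, with 0.65 ± 0.09 (adjusted p = 2e-05 by limma) and 0.30 ± 0.08 (adjusted p = 0.0068), Sp1 with 0.47 ± 0.10 (adjusted p = 0.00087), Esrra with 0.36 ± 0.11 (adjusted p = 0.015) and Gabpa with 0.30 ± 0.11 (adjusted p = 0.031). The factors Nrf1 and Ppargc1a did not pass, with 0.09 ± 0.10 (adjusted p = 0.53) and 0.27 ± 0.14 (adjusted p = 0.14). With median-of-ratios scaling 2 regulators were higher and none lower. Of 78 genes of the mitochondrial ribosome 21 were higher and 1 lower, with a median of 0.13, and with median-of-ratios scaling 11 were higher and 6 lower. Of 8 mitochondrial chaperones and proteases 5 were higher and none lower, with a median of 0.41, and 3 were higher and none lower with median-of-ratios scaling. As gene groups of other large complexes, 27 of 37 proteasome subunits were higher and 1 lower, and 10 of 85 cytosolic ribosomal proteins were higher and none lower, beside 8 and 1 of the 81 respiratory chain subunits. With median-of-ratios scaling 16 proteasome subunits were higher and 2 lower, and 2 cytosolic ribosomal proteins were higher and 3 lower. Like the subunits, the cytosolic ribosomal proteins had a median below that of all genes, at 0.054.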

How the data were processed

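The authors deposited 1 table of FPKM for 18171 genes, used as deposited. Per the submitters' processing notes, HISAT, Bowtie2 and RSEM were used with the build GRCm38.p5; versions and settings are not given in the sources used here. FPKM keeps no read totals, so absolute depth is unknown. By definition, FPKM per fragment is higher where the library total, or the transcript length used, is smaller. These were not told apart. Each of the 24 columns was matched to a library (unmatched columns: 0). Of the identifiers, 18040 matched a RefSeq symbol and 131 did not. FPKM per fragment came from 228 low genes; 84.2% of their 2568 values differed by less than 0.2 from whole steps. Lengths are medians over GENCODE M21 coding transcripts with a RefSeq match. Genes with at least 1 FPKM in at least 6 libraries (10532) were fitted on log2(FPKM + 1) with limma 3.58.1 in R 4.3.3, with variances that follow the mean and Benjamini-Hochberg adjustment over all genes tested; folds on this scale understate low genes. Named genes are the core subunits, the 3 smallest p and the highest level per complex, and the isoform pairs; others named were chosen after their values were seen. One member counted in the lists is not reported here by itself. Members and lists were chosen with earlier results of these data known. Alternatives were another pseudocount, other filters, 2 scalings, a replicate block, a library class term and libraries left out. The fit was tested on simulated data.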

Additional observations from a re-analysis of the deposited data

Results flagged for a closer look

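A library stood far from the other 5 of its group in 29 of 148 groups of values examined (19.6%). For independent values, chance alone flags about 1 in 20. The groups here share the same 24 libraries, so 1 odd library can flag many genes at once, and the excess was not tested. Most came from replicate 3 of L2d13 set 2 and replicate 6 of WT set 2, both of high FPKM per fragment. The former also had the most genes at 1 FPKM or more, 11371, where the other libraries had 9463 to 10713. Pancreas markers summed to at most 47.3 FPKM in L2d13 livers (median 0.355) and 0.78 FPKM in WT livers. Adipocyte markers summed to at most 61.0 FPKM in L2d13 livers (median 12.3) and 19.4 FPKM in WT livers. The part of other tissue in these values was not tested. Replicate 3 of L2d13 set 2 had the lowest FPKM of its group for Atp5c1 (145), Atp5pb (142), Sdha (71.1) and Sdhd (87.3). It had the highest for Cox4i1 (718), Cox5b (415), Cox6a1 (787), Cox7a2 (249), Cox7a2l (164), Ndufa4 (856), Ndufb9 (534), Ndufs7 (227), Uqcr11 (718) and Uqcrq (304), and its members took the highest share of the library's FPKM (3.47%). Replicate 11 of L2d13 set 4 had the highest FPKM of its group for Cox4i1 (678), Cox5a (217) and Uqcrq (198), and the highest share (3.03%). Replicate 6 of WT set 2 had the lowest FPKM of its group for Atp5a1 (118), Atp5c1 (154), Atp5pb (96.0), Cox7a2l (41.1), Ndufv1 (53.8), Sdha (37.3) and Sdhd (37.8). It had the highest for Cox5b (462), Cox7c (1320) and Ndufs8 (94.8).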

How the results depend on the processing

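The number of libraries and their class limit these results, and absolute depth is unknown. Of the members, 8 were called higher and 1 lower over both sets. With median-of-ratios scaling there were 1 higher and 3 lower, with quantile normalization 5 higher and 2 lower, without the 6 libraries 8 and 0, with FPKM of at least 5 in 6 libraries 8 and 0, and with library class as a term 7 and 0. With the 6 libraries left out and median-of-ratios scaling, chosen after seeing the data, there were 2 higher and 0 lower. The share of all genes called also moved with the setting. Where that share is not given, the counts of members stand without a background. Leaving out each library in turn gave 5 to 10 higher, 1 to 3 lower and a median of -0.0525 to 0.0404. Atp5pb was lost in 14 of these 24 fits: without replicate 1, 2, 4, 5 or 6 of L2d13 set 2, 7, 9 or 11 of L2d13 set 4, 1, 3, 4 or 6 of WT set 2, or 9 or 11 of WT set 4 (adjusted p 0.020 to 0.079 over the 24). Atp5a1 was lost in 7, without replicate 1, 2 or 4 of L2d13 set 2, 8 of L2d13 set 4, 6 of WT set 2, or 9 or 11 of WT set 4 (0.013 to 0.067). Ndufv1 was lost without replicate 9 or 11 of WT set 4 (0.017 to 0.065), where 5 members were higher. With the replicate block the adjusted p was 0.092 for Atp5pb and 0.056 for Atp5a1 by limma, and neither was called with no filter. There were 2 or 3 lower without replicate 3 of L2d13 set 2, replicate 11 of L2d13 set 4, replicate 3 or 5 of WT set 2 or replicate 8 of WT set 4.

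In set 2 the 3 members higher became 0 with median-of-ratios scaling, 12 without the 6 libraries and 5 with FPKM of at least 5. In set 4 the 1 higher became 0 with either scaling and without the 6 libraries, and 1 was lower with a pseudocount of 0.1 and with either scaling; the median was 0.0549 without the 6 libraries, and 0.113 with median-of-ratios scaling as well, where the median difference of effects was 0.0687 and none was higher in set 4. Without the 6 libraries 6 members were lower in set 4 in L2d13 livers. Calls in complex I were 1 without the 6 libraries and 0 with both changes; in complex II 0 with median-of-ratios scaling; in complex III 3 with library class as a term; in complex IV 1 without the 6 libraries, with FPKM of at least 5, with class as a term and with both changes; in complex V 0 with median-of-ratios scaling, with class as a term and with both changes, 1 with quantile normalization and with no filter, and 5 without the 6 libraries. No named member reversed its direction while called. Where a value moved, the cause was not tested.

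The numbers 1 to 12 in the titles did not pair the libraries: the deviations of same-numbered libraries correlated at -0.604 to 0.26, over 0.1 in 4 of 12 pairs, and 1 of 24 libraries correlated best with its own number. With the replicate number as a block, 4 members were higher and 1 lower, with 1 call each in complexes I and V.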
